A study of Mus musculus with 8 samples.

Results

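The genes described here are the ligands and receptors of the tumour necrosis factor (TNF) superfamily. They were taken by symbol from the deposited count table: every gene whose symbol starts with Tnfsf or Tnfrsf, and 15 further members with other symbols, among them Tnf, Lta, Ltb, Ltbr, Fas, Fasl and Cd40. The rule found 46 genes of the 23478 named in the table, 18 ligands and 28 receptors, and no measured value was used to choose them. Their RNA levels were followed across 8 mouse libraries in 4 groups of 2 replicates.

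The first group, DCC IFN-gamma, holds disseminated cancer cells (DCC), recovered from the bone marrow of mice whose breast cancer had spread spontaneously and then cultured with interferon-gamma. The second, DCC control, holds such cells cultured without it. The third is TUBO, a mouse breast cancer cell line, and the fourth, early lesion, holds primary cells whose label names neuT, the activated rat Erbb2 oncogene. The labels give every sample the genotype WT and the tissue breast cancer. The dose and duration of interferon-gamma are not given in the sources used here, nor is the age of the mice. The labels do not say whether replicates came from separate mice, separate cultures or pools, so p-values measure only the spread between these samples, which may be technical. The protocol text also speaks of other treatments, but none of the 8 libraries carries a label of them.

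TNF superfamily ligands are trimers, made as membrane proteins and often shed, that gather receptors on the next cell. Receptors of the family signal in either of a pair of ways: those with a death domain recruit TRADD or FADD and can start caspase-8 and apoptosis, and those without one bind TRAF adaptors and switch on NF-kB and MAP kinases. Decoy receptors bind ligand without signalling. In bone, RANKL (Tnfsf11) made by stromal and osteoblast-lineage cells drives osteoclast formation through RANK (Tnfrsf11a), and osteoprotegerin (Tnfrsf11b) captures RANKL. Promoters of genes that answer interferon-gamma often hold GAS elements or ISRE-like elements, and IRF1 binds the ISRE-like ones.

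Interferon-gamma libraries carried a strong interferon response, and the DCC libraries lacked epithelial transcripts. Irf1, a transcription factor induced by interferon-gamma, had 865 and 1018 CPM (counts relative to the TMM-scaled size of each library) in the treated DCC, against 10.8 and 16.6 CPM in DCC control. The 8 epithelial markers, among them Epcam and Cdh1, summed to 0.367 and 0.501 CPM in DCC IFN-gamma, 2.98 and 1.90 in DCC control, 5637 and 6059 in TUBO, and 3256 and 3084 in early lesion. In both DCC groups none of these 8 genes passed 1.28 CPM, which goes against the label of a breast cancer cell. The 6 fibroblast markers summed to 600 and 1021 CPM in DCC IFN-gamma and 7288 and 8396 in DCC control, against 8.43 to 15.3 CPM in the other 4 libraries. All 8 markers of osteoblasts and marrow stroma were called higher in DCC control than in TUBO and in early lesion. Erbb2 had 35.0 and 39.0 CPM in DCC IFN-gamma, 21.2 and 23.3 in DCC control, and 238 to 258 in TUBO and early lesion. The group names below are therefore those of the labels. Reads counted on genes totalled 15432210 to 30168475 per library, so that 3 counts, the floor used for a gene with none, stood for 0.0953 to 0.183 CPM. Floors cover counting error only. In 1 library of each of 2 groups more reads lay outside annotated genes, 49.2% in DCC control replicate 1 and 44.1% in early lesion replicate 2, against 18.3% to 31.0% elsewhere. In these libraries 47.7% and 63.6% of 1457 olfactory and vomeronasal receptor genes had a count, and 95% of those genes lay at or under 0.913 and 0.446 CPM. The same limit was 0.238 CPM in DCC control replicate 2 and 0 in the other 5 libraries. In bulk RNA, fewer cells of a type and less RNA per cell cannot be told apart.

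Promoter sequences are shown for 4 receptors or ligands that rose after interferon-gamma, because they let the letters of GAS and ISRE-like elements be looked for beside the response. Each is the 250 bases before the start of the gene from RefSeq (GRCm38.p6), 5′ to 3′ on the strand of the gene. Capitals mark matches to the GAS letters TTCNNNGAA or, at the very end of the Tnfrsf1b stretch, to an ISRE-like pattern (GAAA, any 2 bases, GAAA) read on the other strand. Both strands were searched in windows of 300 bases, to 50 bases after the start, and the motifs can overlap.
Tnfrsf1b (chr4:145246871-145247120, minus strand): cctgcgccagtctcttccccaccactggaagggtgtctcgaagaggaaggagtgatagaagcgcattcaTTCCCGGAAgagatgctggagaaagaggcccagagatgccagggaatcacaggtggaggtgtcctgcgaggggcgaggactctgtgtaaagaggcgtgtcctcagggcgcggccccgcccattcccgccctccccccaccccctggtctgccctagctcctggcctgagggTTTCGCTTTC
Fas (chr19:34290409-34290658, plus strand): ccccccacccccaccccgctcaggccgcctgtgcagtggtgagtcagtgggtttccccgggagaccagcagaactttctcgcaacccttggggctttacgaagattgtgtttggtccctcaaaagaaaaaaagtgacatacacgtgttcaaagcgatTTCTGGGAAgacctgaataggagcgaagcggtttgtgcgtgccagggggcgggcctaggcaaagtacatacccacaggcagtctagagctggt
Tnf (chr17:35202008-35202257, minus strand): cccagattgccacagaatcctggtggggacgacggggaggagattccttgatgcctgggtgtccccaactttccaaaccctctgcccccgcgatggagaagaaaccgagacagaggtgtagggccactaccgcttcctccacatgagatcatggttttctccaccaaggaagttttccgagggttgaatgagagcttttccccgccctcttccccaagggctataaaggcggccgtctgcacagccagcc
Tnfrsf12a (chr17:23677450-23677699, minus strand): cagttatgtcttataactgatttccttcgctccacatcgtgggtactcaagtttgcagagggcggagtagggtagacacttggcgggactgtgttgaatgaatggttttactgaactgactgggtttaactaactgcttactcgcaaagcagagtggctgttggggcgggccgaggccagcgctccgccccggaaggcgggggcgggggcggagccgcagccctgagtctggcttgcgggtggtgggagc

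Of the 46 members, 36 had a promoter in the RefSeq table, with 40 windows in all. GAS letters stood in 9 of the 40 windows (22.5%), against 8.3% of 32851 promoters of all genes. The ISRE-like pattern stood in 4 windows (10%, against 3.44%), and a kappaB consensus in 3 (7.5%, against 4.51%). Of the 9 members that rose after interferon-gamma, 5 had a promoter in the table. Fas held GAS letters at position -93 from its start, and Tnfrsf1b at -181 with the ISRE-like pattern at -10. Tnf, Tnfrsf12a and Tnfrsf23 held none of these motifs in the window. Tnfrsf19, which fell, held GAS letters at -2 in its window at 61046806 to 61047105 on chromosome 14. Its other window, at 61037938 to 61038237, held none. A match is a description of letters and not a bound site.

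Ligand RNA was highest in DCC IFN-gamma, and receptor RNA was high in DCC IFN-gamma and TUBO alike. Summed over the 18 ligands, the libraries held 65.9 and 64.7 CPM in DCC IFN-gamma, 31.1 and 25.7 in DCC control, 18.1 and 14.99 in TUBO, and 13.8 and 22.8 in early lesion. Summed over the 28 receptors, they held 815 and 840, 408 and 428, 787 and 835, and 530 and 553 CPM in the same order of groups. No ligand reached 50 CPM in any library, and 7 of the 18 stayed under 1 CPM in every one. Of the receptors 7 reached 50 CPM somewhere and 6 stayed under 1 CPM. At least 1 CPM in both libraries was reached by 24 members in DCC IFN-gamma, 22 in DCC control, 17 in TUBO and 17 in early lesion. TUBO had the most silent members, with 16 at 0 counts in both libraries, against 5 in DCC IFN-gamma and 2 each in DCC control and early lesion. Over all 23478 genes TUBO was also lowest, with 13105 genes of at least 10 counts over both libraries. That number was 13874 in DCC IFN-gamma, 16229 in early lesion and 17645 in DCC control, so the silence is not particular to the family. Of single libraries, early lesion replicate 1 had 13 members at 0 counts, and replicate 2, in which sensory receptor genes also had counts, had 2.

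**Figure D1:**
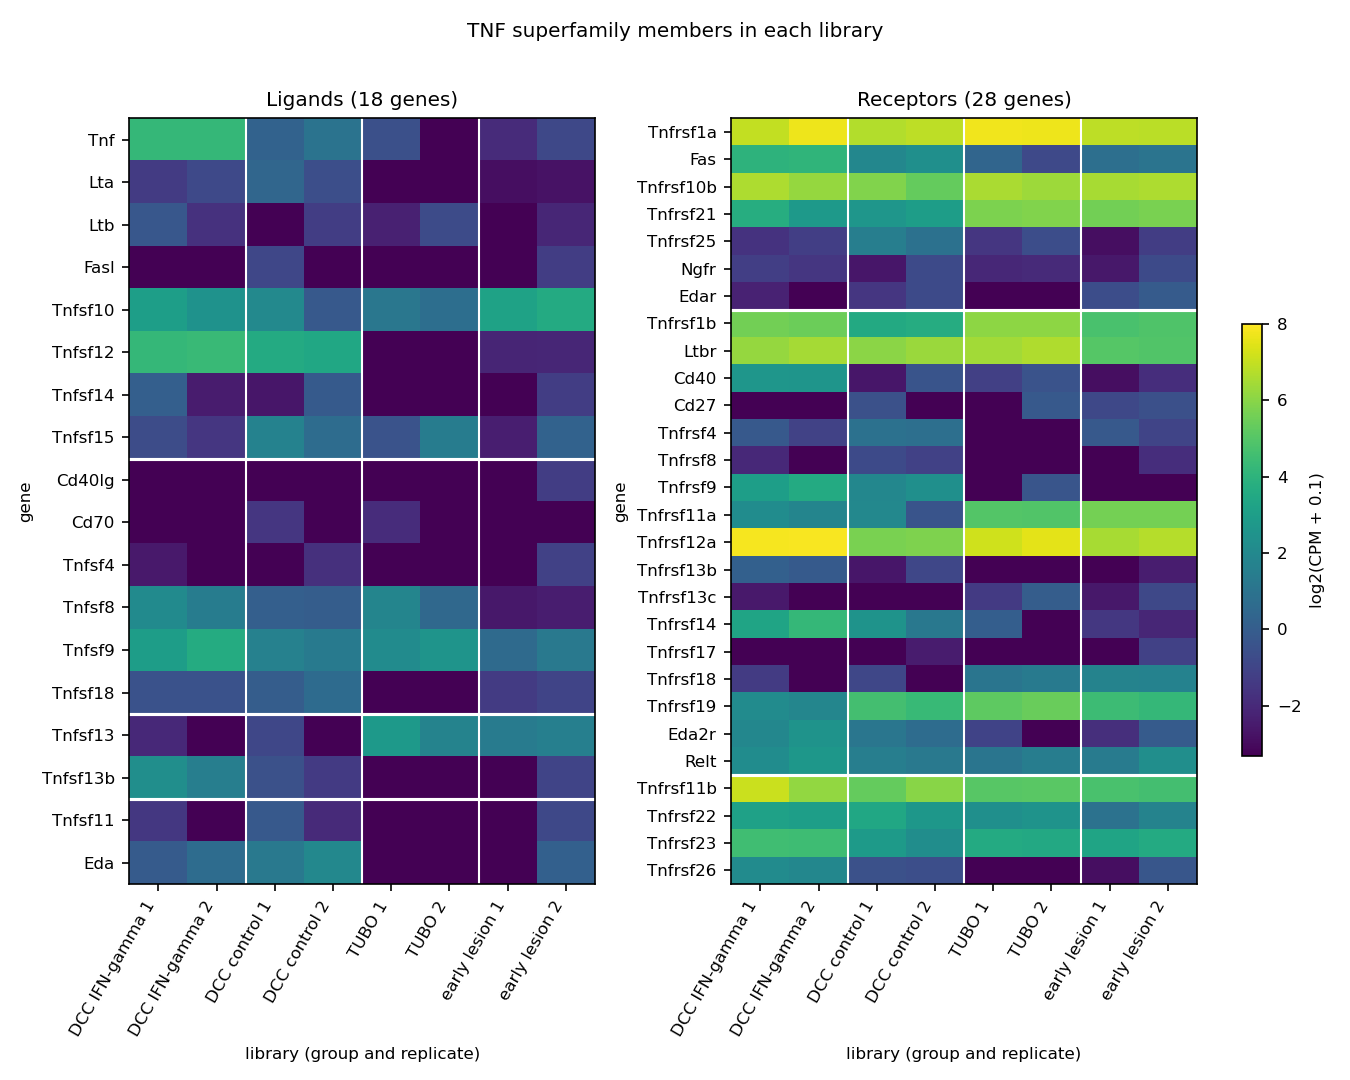
Heat maps of log2(CPM + 0.1) for the 18 ligands (left) and 28 receptors (right), genes in rows grouped by role and the 8 libraries in columns by group. Tnfrsf1a, Tnfrsf12a, Ltbr and Tnfrsf10b are bright in all 8 libraries, while Tnf and Cd40 are bright in DCC IFN-gamma only.

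Levels between genes can be compared per kilobase of exon. Tnfrsf12a (Fn14), the receptor of TWEAK, and Tnfrsf1a (TNFR1), the main death domain receptor of TNF, were the top pair in DCC IFN-gamma, TUBO and early lesion, while in DCC control Tnfrsf1a was followed by Ltbr and then Tnfrsf12a. Tnfrsf12a averaged 120 CPM per kilobase in DCC IFN-gamma, 27.7 in DCC control, 85.3 in TUBO and 51.7 in early lesion. Tnfrsf1a averaged 64.8, 42.4, 81.8 and 45.0 in these groups. Ltbr, the lymphotoxin-beta receptor, stood among the first 4 members in every group, at 34.6, 30.9, 40.0 and 13.4 CPM per kilobase. Among ligands Tnfsf12 (TWEAK), at 12.7 and 7.46 CPM per kilobase in DCC IFN-gamma and DCC control, and Tnf, at 11.3 in DCC IFN-gamma, were the only ones among the first 8 members of a group.

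Interferon-gamma raised part of the family in DCC, 2 of 14 tested ligands and 7 of 26 tested receptors. Of the 40 members that passed the filter on low counts (14 ligands and 26 receptors), 9 rose, 1 fell and 30 were not called in edgeR's quasi-likelihood test at an adjusted p under 0.05. Over all 17069 genes tested, 12.6% were called higher and 8.83% lower. The median log2 fold change was 0.86 over the 40 members and -0.20 over all genes tested. The 9 were the ligands Tnf and Tnfsf9 and the receptors Cd40, Fas, Tnfrsf10b, Tnfrsf11b, Tnfrsf12a, Tnfrsf1b and Tnfrsf23. The calls of Tnfrsf12a, Tnfrsf1b, Tnfrsf23 and Tnfrsf19 held in every alternative run, and the other 6 were lost when 1 library was left out or in other fits. In the same libraries the 8 macrophage markers summed to 896 and 685 CPM in DCC IFN-gamma, against 81.1 and 80.9 CPM in DCC control, with 7 of 8 called higher. The 5 pan-leukocyte markers summed to 372 and 341 CPM, against 31.3 and 30.1 CPM, with 3 of 5 called higher. Their part in the changes of the members was not tested.

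**Figure D2:**
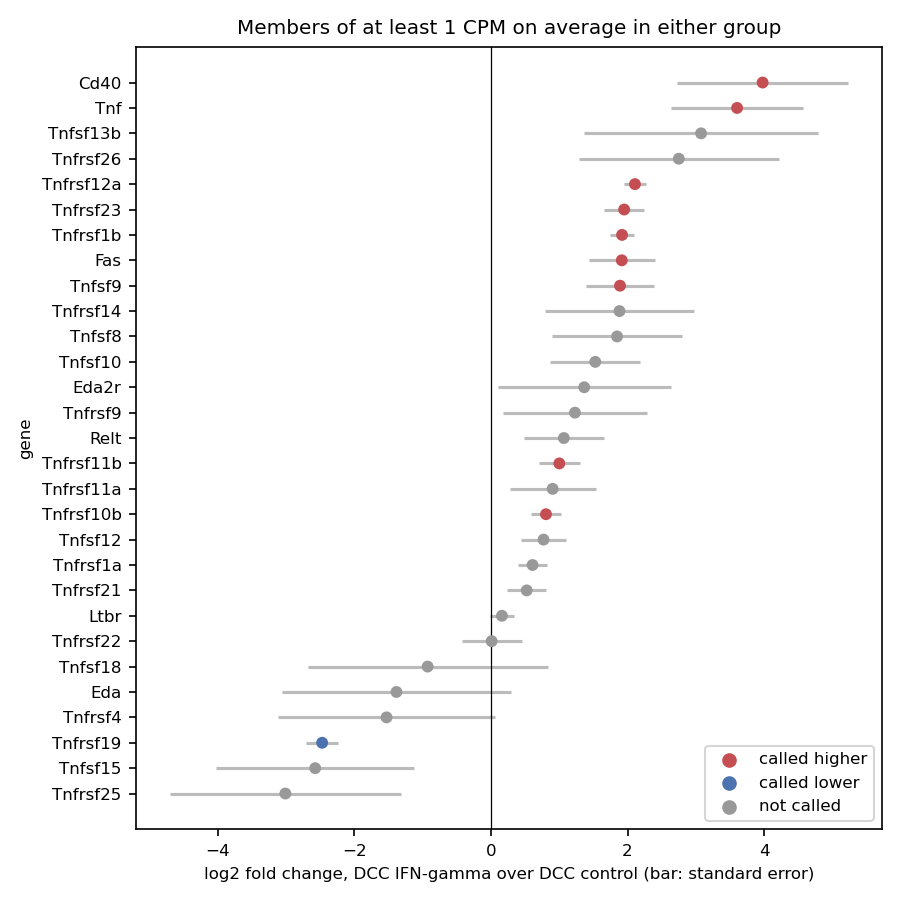
Log2 fold change of DCC IFN-gamma over DCC control (points) with its standard error (bars) for the 29 members that averaged at least 1 CPM in either group. Red points were called higher, the blue point lower and grey points were not called; Cd40 and Tnf have the largest changes and wide errors, Tnfrsf12a and Tnfrsf1b smaller ones with narrow errors.

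Among the 8 inflammatory and death ligands, of which 7 were tested, 1 rose and none fell, beside 12.6% and 8.83% of all genes tested. Tnf (chromosome 17, 35199381 to 35202007, minus strand), the founding cytokine of the family, had 18.5 and 18.4 CPM in DCC IFN-gamma, against 1.10 and 1.90 CPM in DCC control. It had 0.586 and 0 CPM in TUBO and 0.159 and 0.446 CPM in early lesion. Only the treated DCC were above 2 CPM, and they did not overlap with any other group. Tnf rose by 3.60 ± 0.97 on the log2 scale (standard error, adjusted p = 0.0317). That call was lost on leaving out DCC control replicate 1 (adjusted p = 0.193) or 2 (0.156), without DCC IFN-gamma replicate 1 (0.0937) or 2 (0.0718), and with a replicate block (0.0711).

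TRAIL and TWEAK were present in DCC and were not called after treatment with all 8 libraries and the filter on low counts. Tnfsf10 (TRAIL), which kills through Tnfrsf10b in mice, had 7.99 and 5.30 CPM in DCC IFN-gamma, against 3.90 and 0.792 CPM in DCC control (log2 fold change 1.53 ± 0.66, adjusted p = 0.133). Its 2 control libraries lay far apart, and on leaving out DCC control replicate 1 the change was 3.06 and called (adjusted p = 0.0165). It was also called with no filter on low counts (0.0256). Tnfsf12 (TWEAK), a ligand of injury and tissue repair, had 18.3 and 20.3 CPM in DCC IFN-gamma, against 11.99 and 10.6 CPM in DCC control. The groups did not overlap, but the difference was not called (0.77 ± 0.34, adjusted p = 0.141). Fasl, the killer ligand of T and NK cells, had no count in DCC IFN-gamma and 0.426 and 0 CPM in DCC control. Lta (lymphotoxin alpha) had 0.293 and 0.459 CPM in DCC IFN-gamma, against 1.22 and 0.554 CPM in DCC control, and Ltb had at most 0.733 CPM in any library.

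Among the 6 costimulatory ligands, 3 were tested and 1 rose, beside 12.6% of all genes tested. Tnfsf9 (4-1BBL, chromosome 17, 57105325 to 57107757), which costimulates T cells through Tnfrsf9, had 7.70 and 12.2 CPM in DCC IFN-gamma, against 3.04 and 2.34 CPM in DCC control. The groups did not overlap, and Tnfsf9 rose by 1.89 ± 0.50 (adjusted p = 0.0238). Its call was lost on leaving out DCC control replicate 1 (adjusted p = 0.0779) or 2 (0.126) or DCC IFN-gamma replicate 2 (0.164), and an antisense gene, Gm11110, overlaps its exons. Tnfsf8 (CD30L) had 4.215 and 2.59 CPM in DCC IFN-gamma, against 0.974 and 0.911 CPM in DCC control (1.85 ± 0.95, adjusted p = 0.198). Cd40lg, the T cell ligand of CD40, had counts in early lesion replicate 2 only (0.312 CPM), and Cd70 and Tnfsf4 (OX40L) stayed at or under 0.357 CPM. Of the B cell ligands, Tnfsf13b (BAFF), which keeps B cells alive, had 4.73 and 2.75 CPM in DCC IFN-gamma, against 0.609 and 0.277 CPM in DCC control. Those groups did not overlap either, and the difference was not called (3.08 ± 1.71, adjusted p = 0.233).

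Of the 7 death domain receptors, all tested, 2 rose and none fell, beside 12.6% and 8.83% of all genes tested. Fas (chromosome 19, 34290666 to 34327772, plus strand), the receptor of Fas ligand, had 15.7 and 16.8 CPM in DCC IFN-gamma, against 3.71 and 4.87 CPM in DCC control. TUBO had 1.21 and 0.458 CPM and early lesion 1.65 and 1.92 CPM, so that the treated DCC stood highest of the 4 groups. Fas rose by 1.92 ± 0.49 (adjusted p = 0.019), a call lost on leaving out DCC control replicate 1 (adjusted p = 0.116) or DCC IFN-gamma replicate 1 (0.0645) or 2 (0.0696). Tnfrsf10b, the only TRAIL receptor with a death domain in mice, had 98.2 and 72.8 CPM in DCC IFN-gamma, against 58.4 and 39.5 CPM in DCC control. It rose by 0.81 ± 0.21 (adjusted p = 0.0234), and the call was lost on leaving out DCC control replicate 2 (adjusted p = 0.156) or DCC IFN-gamma replicate 1 (0.0725), with upper quartile factors (0.0903) and in a fit of the 2 groups alone (0.0547).

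Tnfrsf1a had 124 and 211 CPM in DCC IFN-gamma, against 103 and 117 CPM in DCC control. The treated replicates differed more from each other than the lower one did from the controls, and the gene was not called (0.61 ± 0.22, adjusted p = 0.0743). It was called on leaving out DCC IFN-gamma replicate 1 (3.69e-04) and with no filter on low counts (0.013). Tnfrsf21 (DR6), a receptor studied in neurons and T cells, had 13.2 and 6.84 CPM in DCC IFN-gamma, against 6.15 and 7.72 CPM in DCC control. These groups overlapped (0.52 ± 0.29, adjusted p = 0.222), and the call again turned on 1 library, with an adjusted p of 0.00323 without DCC IFN-gamma replicate 2. Tnfrsf25 (DR3), the receptor of Tnfsf15, had 0.220 and 0.334 CPM in DCC IFN-gamma, against 2.74 and 1.78 CPM in DCC control. Tnfsf15 itself (TL1A) had 0.513 and 0.250 CPM in DCC IFN-gamma, against 3.105 and 1.505 CPM in DCC control, and neither gene was called (adjusted p = 0.234 for both). Ngfr and Edar stayed under 0.85 CPM in all 8 libraries.

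Of the 17 TRAF-binding receptors, 15 were tested, 3 rose and 1 fell, beside 12.6% and 8.83% of all genes tested. Tnfrsf12a (chromosome 17, 23675445 to 23677468, minus strand) had 228 and 234 CPM in DCC IFN-gamma, against 51.9 and 55.2 CPM in DCC control. Between them lay TUBO, at 145 and 184 CPM, and early lesion, at 92.5 and 107 CPM. The treated DCC had the highest and the untreated DCC the lowest levels of the series, with no overlap between any groups. Tnfrsf12a rose by 2.11 ± 0.17 (adjusted p = 2.11e-05).

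Tnfrsf1b (TNFR2, chromosome 4, 145213463 to 145246870, minus strand), the TRAF-binding receptor of TNF, rose by 1.92 ± 0.17 (adjusted p = 4.53e-05). It had 47.7 and 44.5 CPM in DCC IFN-gamma, against 11.6 and 12.7 CPM in DCC control. TUBO had 66.7 and 66.9 CPM and early lesion 26.5 and 29.3 CPM, so that the 4 groups were again fully apart, with TUBO above the treated DCC. Cd40 (chromosome 2, 165055627 to 165072948), the receptor through which T cells license antigen-presenting cells, had 6.16 and 5.96 CPM in DCC IFN-gamma, against 0.0609 and 0.673 CPM in DCC control. No library outside the treated DCC passed 0.673 CPM. Cd40 rose by 3.98 ± 1.25 (adjusted p = 0.0465). Its call was lost on leaving out DCC control replicate 1 (adjusted p = 0.168), without DCC IFN-gamma replicate 1 (0.193) or 2 (0.151), and with upper quartile factors (0.0611). The change was 3.16 without DCC control replicate 1 and 6.53 without replicate 2; these 2 libraries had 1 and 17 counts of the gene.

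Tnfrsf19 (TROY, chromosome 14, 60963875 to 61046490, minus strand), a receptor of developing skin and nervous tissue and of stem cells, was the member that fell. It had 4.29 and 3.55 CPM in DCC IFN-gamma, against 24.2 and 19.4 CPM in DCC control, a log2 fold change of -2.47 ± 0.24 (adjusted p = 7.18e-05). TUBO had 36.8 and 42.9 CPM and early lesion 21.7 and 18.6 CPM, so that the treated DCC lay below the other 6 libraries. In the same comparison 4 of 6 fibroblast markers were called lower and 1 higher. Of 8 markers of osteoblasts and marrow stroma 4 were called lower and none higher. Their sums were 10190 and 25260 CPM in DCC IFN-gamma, against 16010 and 21770 in DCC control, and these overlapped. Whether the fall of Tnfrsf19 belongs to the marker changes was not tested.

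Several TRAF-binding receptors were higher in both treated libraries without a call, and others were lower in both. How many of all genes separate in this way was not counted. Tnfrsf4 (OX40) had 0.806 and 0.375 CPM in DCC IFN-gamma, against 1.765 and 1.663 CPM in DCC control. Tnfrsf8, which was not tested, had 0.147 and 0 CPM, against 0.487 and 0.356 CPM. Tnfrsf9 (4-1BB), an inducible costimulatory receptor, had 8.14 and 12.01 CPM in DCC IFN-gamma, against 3.65 and 4.91 CPM in DCC control (1.23 ± 1.06, adjusted p = 0.425). Tnfrsf14 (HVEM) had 9.68 and 18.6 CPM in DCC IFN-gamma, against 5.48 and 2.22 CPM in DCC control (1.88 ± 1.09, adjusted p = 0.257), and was called without TUBO replicate 1 (0.0414) or 2 (0.0463) and with no filter on low counts (0.00971). Eda2r (XEDAR), a receptor of ectodysplasin and a known p53 target, had 3.63 and 5.59 CPM in DCC IFN-gamma, against 2.07 and 1.505 CPM in DCC control (1.37 ± 1.27, adjusted p = 0.45). Relt, an orphan receptor, had 4.51 and 6.17 CPM in DCC IFN-gamma, against 2.80 and 2.297 CPM in DCC control (1.07 ± 0.58, adjusted p = 0.223). Ltbr had 73.0 and 89.8 CPM in DCC IFN-gamma, against 65.9 and 79.6 CPM in DCC control, and these overlapped (0.16 ± 0.17, adjusted p = 0.512). A fit of the 2 DCC groups alone called Tnfrsf9 (adjusted p = 0.0439), Tnfrsf14 (0.0342), Tnfrsf25 (0.0353), Tnfrsf26 (0.018) and Tnfsf13b (0.0226) in the directions given.

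Of the decoy receptor and the mouse receptor cluster, 2 of 4 rose, beside 12.6% of all genes tested. Tnfrsf23 (chromosome 7, 143665809 to 143685872), a mouse TRAIL receptor without a death domain, had 22.9 and 22.2 CPM in DCC IFN-gamma, against 7.18 and 4.55 CPM in DCC control. It rose by 1.95 ± 0.30 (adjusted p = 0.00124), with no overlap with any other group. Its neighbours in the cluster were not called: Tnfrsf22 had 8.87 and 7.97 CPM in DCC IFN-gamma, against 10.5 and 6.22 CPM in DCC control. Tnfrsf26 had 4.25 and 3.63 CPM in DCC IFN-gamma, against 0.609 and 0.554 CPM in DCC control (2.75 ± 1.46, adjusted p = 0.217). These paralogs may share reads, and an antisense gene, E230032D23Rik, overlaps Tnfrsf23 and Tnfrsf26. Tnfrsf11b, the soluble decoy osteoprotegerin (chromosome 15, 54250619 to 54278484), had 135 and 72.5 CPM in DCC IFN-gamma, against 40.3 and 63.0 CPM in DCC control. It rose by 1.002 ± 0.303 (adjusted p = 0.0478), the weakest of the 10 calls. Leaving out DCC control replicate 1 (adjusted p = 0.231), DCC IFN-gamma replicate 1 (0.179), either early lesion replicate (0.06 each), TUBO replicate 1 (0.092) or TUBO replicate 2 (0.0897) ended it, as did a replicate block (0.0973), upper quartile factors (0.0928) and a fit of the 2 groups alone (0.0644).

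**Figure D3:**
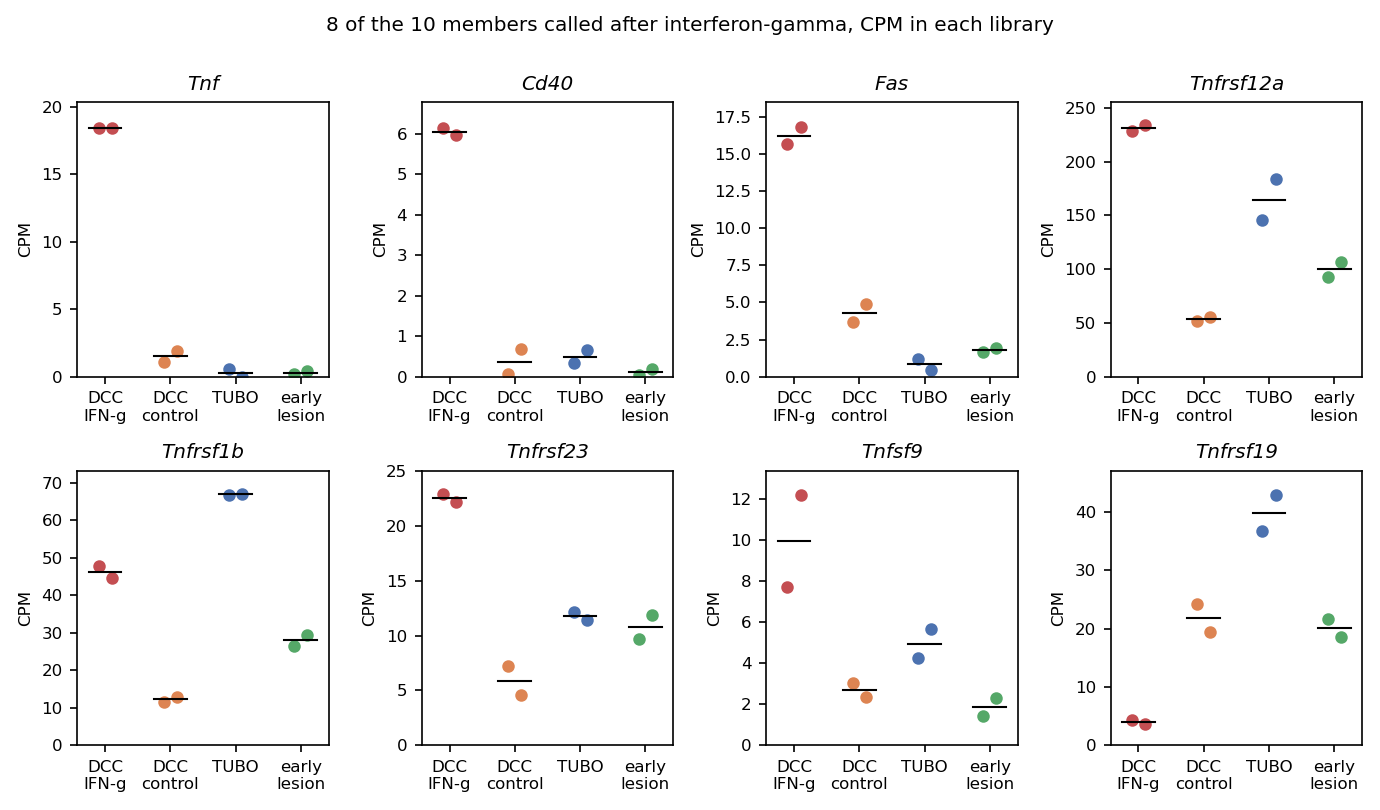
CPM of 8 of the 10 members called after interferon-gamma, a panel per gene, each point a library and each line a group mean of 2 libraries. Tnf, Cd40, Fas and Tnfrsf23 are highest in DCC IFN-gamma, Tnfrsf19 is lowest there at 4.29 and 3.55 CPM, and TUBO exceeds DCC IFN-gamma in Tnfrsf1b.

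Genes that carry the signal of these receptors were also called higher. Of 18 adaptors and ubiquitin regulators 6 rose and none fell, of 10 genes of the death complex 7 rose, of 16 kinases and NF-kB genes 8 rose, and of 5 genes of ligand and receptor shedding 3 rose. None of these 49 genes was called lower, although Traf5 was in a fit of the 2 DCC groups alone (-0.84, adjusted p = 0.0438). Among all genes tested, 12.6% were called higher and 8.83% lower. The median log2 fold changes of the 4 lists were 0.29, 1.46, 0.65 and 0.60, beside -0.20 over all genes. By the size of the change, Mlkl led them, the pore-forming protein of necroptosis, with 102 and 65.4 CPM in DCC IFN-gamma, against 1.64 and 1.19 CPM in DCC control (5.91 ± 0.29, adjusted p = 1.29e-06). Tnfaip3 (A20), which shuts off TNF signalling, had 70.6 and 90.4 CPM in DCC IFN-gamma, against 3.41 and 2.65 CPM in DCC control. Nfkbia, the inhibitor of NF-kB, had 263 and 379 CPM in DCC IFN-gamma, against 18.2 and 29.2 CPM in DCC control (3.75 ± 0.27, adjusted p = 1.7e-05). Both sides of the death complex were among the risers. Casp8, the initiator caspase, had 75.9 and 59.7 CPM in DCC IFN-gamma, against 23.1 and 17.6 CPM in DCC control. Its inhibitor Cflar (c-FLIP) had 164 and 163 CPM in DCC IFN-gamma, against 59.8 and 66.7 CPM in DCC control. Casp8 and Cflar were picked for display with their values known.

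Between untreated DCC and early lesion cells, members were called about as often as all genes tested. Of the 40 members tested, 7 were called higher and 7 lower in DCC control, while 19.1% and 18.7% of all genes tested were. The median log2 fold change was 1.12 over the members and 0.23 over all genes tested. The 7 higher ones were Ltbr, Tnfsf12, Tnfrsf9, Tnfrsf22, Tnfsf8, Tnfrsf11b and Tnfrsf14, and the 7 lower ones Tnfrsf11a, Tnfrsf21, Tnfrsf1b, Tnfrsf12a, Tnfrsf10b, Tnfsf10 and Tnfrsf23. The marker sums given above differed between the same groups. In DCC control all 8 epithelial markers were called lower, and all 6 fibroblast and 4 of 5 pan-leukocyte markers higher. Of 8 macrophage markers 5 were called higher and 1 lower. Macrophage sums were 81.1 and 80.9 CPM in DCC control, against 99.7 and 104.9 in early lesion. The part of these markers in the differences was not tested.

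TWEAK RNA was present in DCC and at or near 0 in early lesion and TUBO. Tnfsf12 (chromosome 11, 69686250 to 69695849, minus strand) had 11.99 and 10.6 CPM in DCC control, against 0.127 and 0.134 CPM in early lesion, which were 4 and 3 counts. Its log2 fold change was 6.39 ± 0.48 (adjusted p = 6.47e-06), and that call held in every alternative run. Against TUBO, where both libraries had no count, it was at least 104-fold higher, taking the floor of 3 counts per library. Its receptor Tnfrsf12a ran the other way, with 51.9 and 55.2 CPM in DCC control, against 92.5 and 107 CPM in early lesion (-0.90 ± 0.16). That call was lost on leaving out early lesion replicate 2 together with DCC control replicate 1 (adjusted p = 0.0864). Exons of Tnfsf12 and of Tnfsf13 (APRIL) are shared with the read-through gene Tnfsfm13, so counts of the pair are uncertain. Tnfsf13 had 0.426 and 0 CPM in DCC control, against 6.66 and 3.28 CPM in TUBO and 2.48 and 2.85 CPM in early lesion.

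RANK, the osteoclast receptor, was low in DCC and high in early lesion and TUBO. Tnfrsf11a (chromosome 1, 105780718 to 105847981) had 4.43 and 3.42 CPM in DCC IFN-gamma and 3.77 and 0.673 CPM in DCC control. TUBO had 31.0 and 29.9 CPM and early lesion 49.5 and 49.0 CPM. DCC control was lower than early lesion by a log2 fold change of -4.55 ± 0.65 (adjusted p = 0.00143) and than TUBO by one of -3.86 ± 0.64 (adjusted p = 0.0027). Without DCC control replicate 1 these were -6.18 and -5.49, and without replicate 2 they were -3.71 and -3.02, all still called. After interferon-gamma RANK was not called (0.90 ± 0.63, adjusted p = 0.335). It was called on leaving out DCC control replicate 1 (2.54, adjusted p = 0.00171), also with early lesion replicate 2 left out as well (0.00851), and with no filter on low counts (0.0203).

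The ligand RANKL was nearly silent, and osteoprotegerin was not. Tnfsf11 had 0.257 and 0 CPM in DCC IFN-gamma, 0.791 and 0.158 CPM in DCC control, none in TUBO, and 0 and 0.446 CPM in early lesion. The control and early lesion libraries with the higher values were those in which sensory receptor genes also had counts, at or under 0.913 and 0.446 CPM for 95% of them. Osteoprotegerin, Tnfrsf11b, had 40.3 and 63.0 CPM in DCC control, against 33.6 and 33.7 CPM in TUBO and 26.8 and 24.5 CPM in early lesion. It was called higher in DCC control than in early lesion (1.01 ± 0.31, adjusted p = 0.0294). That call was lost on leaving out DCC control replicate 2 (adjusted p = 0.179), early lesion replicate 1 (0.092) or 2 (0.116), TUBO replicate 1 (0.0766) or 2 (0.0621), and with a replicate block (0.0567). Per kilobase, osteoprotegerin exceeded RANK 64.5 and 45.0 times in DCC IFN-gamma, 22.7 and 199 times in DCC control, 2.303 and 2.394 times in TUBO, and 1.15 and 1.06 times in early lesion. The 2 DCC groups overlapped in this ratio, and each of TUBO and early lesion lay below them. Osteoclast markers stayed low, with sums of 6.12 and 9.97 CPM in DCC IFN-gamma, 18.3 and 15.5 in DCC control, at most 0.207 in TUBO, and 8.68 and 14.4 in early lesion.

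**Figure D4:**
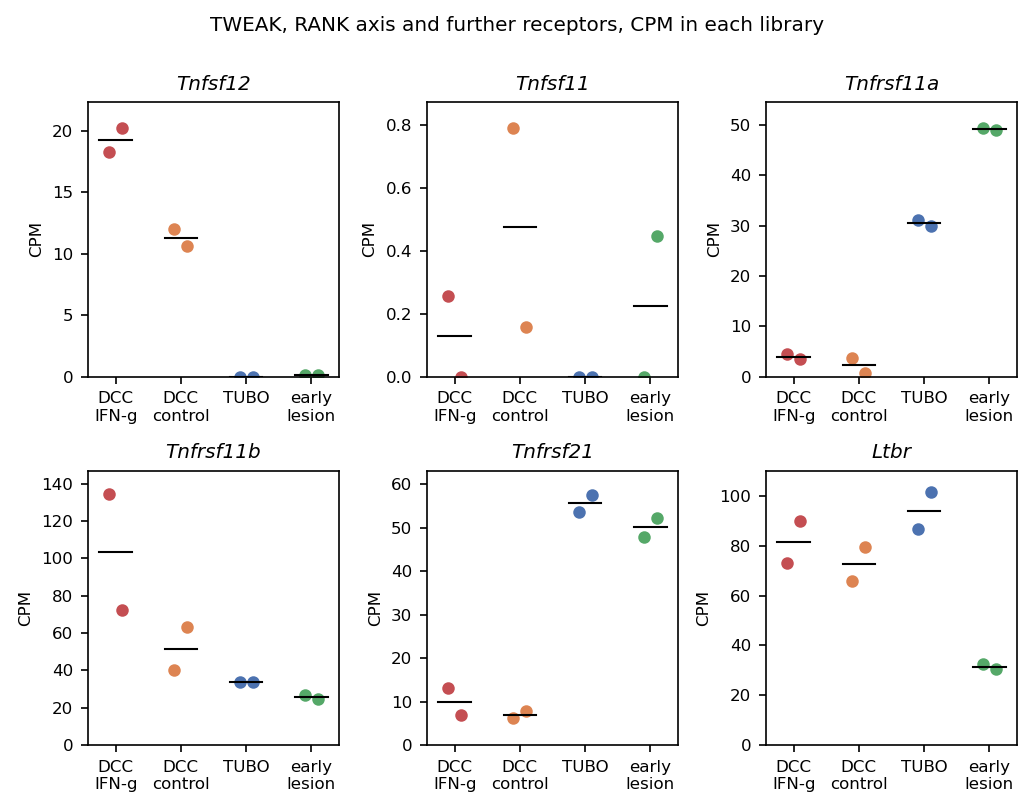
CPM of 6 members in the 4 groups, a panel per gene, each point a library and each line a mean of 2 libraries. Tnfsf12 is present in both DCC groups and at or near 0 in TUBO and early lesion. Tnfrsf11a and Tnfrsf21 are lower in both DCC groups than in TUBO and early lesion, without being absent. The Tnfsf11 axis ends under 1 CPM.

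Tnfrsf21 was likewise lower in DCC. It had 6.15 and 7.72 CPM in DCC control, against 53.7 and 57.6 CPM in TUBO and 47.8 and 52.4 CPM in early lesion. The log2 fold change was -2.85 ± 0.29 against early lesion (adjusted p = 2.96e-05) and -3.00 ± 0.30 against TUBO, and both calls held in every alternative run. Of the other receptors, Tnfrsf1b was lower in DCC control than in early lesion (-1.20 ± 0.17) and than in TUBO (-2.46 ± 0.17), also in every alternative. Tnfrsf10b had 58.4 and 39.5 CPM in DCC control, against 93.0 and 96.0 CPM in early lesion (-0.95), and the groups did not overlap. Tnf was not called against early lesion (2.36 ± 1.047, adjusted p = 0.12) or TUBO (2.32 ± 1.03, adjusted p = 0.107). It was called against early lesion on leaving out TUBO replicate 1 (0.00922) or 2 (0.0102), and against TUBO on leaving out TUBO replicate 1 (0.00127), which left 0 counts there. With no filter on low counts it was called in both (0.0013 and 0.00127).

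Ltbr and Tnfrsf9 were the receptors higher in DCC control than in early lesion in every alternative run. Ltbr had 65.9 and 79.6 CPM in DCC control, against 32.3 and 30.6 CPM in early lesion (1.21 ± 0.18, adjusted p = 3.2e-04), and TUBO, at 86.9 and 101.4 CPM, was above both. Tnfrsf9 (chromosome 4, 150914562 to 150946102) had 3.65 and 4.91 CPM in DCC control and no count in early lesion, at least 37.4-fold higher. Tnfrsf14 had 5.48 and 2.22 CPM in DCC control, against 0.254 and 0.134 CPM in early lesion (4.23 ± 1.32, adjusted p = 0.0374). That call was lost on leaving out either DCC control replicate (adjusted p = 0.158 and 0.0958), DCC IFN-gamma replicate 1 (0.0792) or either early lesion replicate (0.156 and 0.15), and was 3.45 without DCC control replicate 1. Tnfrsf22 had 10.5 and 6.22 CPM in DCC control, against 1.84 and 3.26 CPM in early lesion (1.72 ± 0.46), a call lost on leaving out DCC control replicate 1 (adjusted p = 0.11) or early lesion replicate 1 (0.101). Tnfrsf23 was lower in DCC control, with 7.18 and 4.55 CPM, against 9.66 and 11.9 CPM in early lesion (-0.88). Its call was lost on leaving out DCC control replicate 2 (adjusted p = 0.273), early lesion replicate 1 (0.0722) or 2 (0.181), and with upper quartile factors (0.0629).

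Of the ligands, TRAIL was lower and CD30L higher in DCC control than in early lesion. Tnfsf10 had 3.90 and 0.792 CPM in DCC control, against 9.12 and 12.1 CPM in early lesion (-2.20 ± 0.67, adjusted p = 0.0247). The change was -3.73 without DCC control replicate 1 and -1.45 without replicate 2, where the call was lost (adjusted p = 0.0966), as it was without early lesion replicate 2 (0.0852) and in a fit of the 2 groups alone (0.0661). Tnfsf8 had 0.974 and 0.911 CPM in DCC control, against 0.0636 and 0.0892 CPM in early lesion, 2 counts in each library (3.56 ± 1.10, adjusted p = 0.0263). With any library of the 3 groups other than TUBO left out, its adjusted p was 0.0533 to 0.108, and in a fit of the 2 groups alone it was 0.318.

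Against the TUBO line, 7 members were called higher and 9 lower in DCC control, beside 22.1% and 19.9% of all genes tested. The median log2 fold change was 0.55 over the members and 0.37 over all genes tested. The comparison shares the DCC control libraries with the comparison against early lesion and with the interferon comparison. Of the 7, 5 had no count in TUBO: Tnfsf12, Eda, Tnfrsf4, Tnfsf18 and Tnfrsf26. Of the 9 lower members, 8 were receptors: Tnfrsf1a, Tnfrsf1b, Tnfrsf10b, Tnfrsf11a, Tnfrsf12a, Tnfrsf19, Tnfrsf21 and Tnfrsf23. Here 7 of 8 epithelial markers were called lower, and all 6 fibroblast and all 5 pan-leukocyte markers higher. Of 8 macrophage markers 5 were called higher and 1 lower. Macrophage sums were 81.1 and 80.9 CPM in DCC control, against 77.0 and 110.5 in TUBO.

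The receptors of TNF and of TWEAK were lower in DCC control than in TUBO. Tnfrsf1a had 103 and 117 CPM in DCC control, against 213 and 211 CPM in TUBO (-0.95 ± 0.22, adjusted p = 0.00556), a call lost on leaving out early lesion replicate 2 together with DCC control replicate 1 (0.0782). Tnfrsf12a had 51.9 and 55.2 CPM in DCC control, against 145 and 184 CPM in TUBO (-1.62 ± 0.16), and was called in every alternative. Tnfrsf19 had 24.2 and 19.4 CPM in DCC control, against 36.8 and 42.9 CPM in TUBO (-0.87, adjusted p = 0.00818), a call lost on leaving out DCC control replicate 2 (0.0731) or TUBO replicate 2 (0.0654). Tnfrsf10b had 58.4 and 39.5 CPM in DCC control, against 94.2 and 81.3 CPM in TUBO (-0.84, adjusted p = 0.00921), and Tnfrsf23 had 7.18 and 4.55 CPM, against 12.1 and 11.4 CPM (-1.01). Both calls were lost on leaving out DCC control replicate 2 (adjusted p = 0.0751 and 0.144) or TUBO replicate 1 (0.0835 and 0.0822).

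Fas was the death receptor higher in DCC control than in TUBO. It had 3.71 and 4.87 CPM in DCC control, against 1.21 and 0.458 CPM in TUBO, a log2 fold change of 2.36 ± 0.52 (adjusted p = 0.00414) that was 3.28 without TUBO replicate 1. Tnfrsf9 had 3.65 and 4.91 CPM in DCC control, against 0 and 0.687 CPM in TUBO (3.65 ± 1.22, adjusted p = 0.0472). Its change was 2.69 without TUBO replicate 1, and without TUBO replicate 2 the group was left at 0 counts. The call was lost on leaving out any of the 4 DCC libraries (adjusted p = 0.0745 to 0.179) and in a fit of the 2 groups alone (0.0534).

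The other calls against TUBO were of low members. Eda (ectodysplasin), a ligand of skin appendages, had 2.31 and 3.80 CPM in DCC control and was at least 28.1-fold higher than TUBO. Tnfrsf4 (OX40), with 1.76 and 1.66 CPM, was at least 15.7-fold higher, Tnfsf18 (GITRL), with 0.913 and 1.46 CPM, at least 10.9-fold, and Tnfrsf26, with 0.609 and 0.554 CPM, at least 5.34-fold. In DCC control replicate 1 these values of Tnfsf18 and Tnfrsf26 were at or under the 0.913 CPM that bounded 95% of the sensory receptor genes. The calls were lost on leaving out DCC control replicate 2, TUBO replicate 1 or 2 (Eda, adjusted p = 0.0532 to 0.0714) and without DCC control replicate 2 or TUBO replicate 1 (Tnfrsf4, 0.0643 and 0.0519). Those of Tnfrsf26 were lost on leaving out DCC control replicate 1, DCC IFN-gamma replicate 1 or either TUBO replicate (0.0534 to 0.0879), and those of Tnfsf18 without any DCC or TUBO library (0.0546 to 0.149) and with a replicate block (0.0906). Tnfsf13, the only ligand called lower in DCC control, changed by -4.62 ± 1.52 (adjusted p = 0.0322). The call was lost on leaving out DCC control replicate 2 (0.0918, change -3.53) or TUBO replicate 1 (0.14, change -3.93) or 2 (0.0564), and without DCC control replicate 1 no count was left in that group.

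TUBO and early lesion, the groups with epithelial transcripts, differed in fewer members than either did from DCC control, and in fewer of all genes tested. Of the 40 tested, 6 were called higher and 2 lower in TUBO, beside 11.4% and 12.7% of all genes tested, with medians of -0.03 over the members and -0.27 over all genes. Ltbr (1.58 ± 0.18, adjusted p = 1.53e-04) and Tnfrsf1b (1.26 ± 0.16, adjusted p = 4.07e-04) were higher in TUBO in every alternative run. Tnfrsf1b had 66.7 and 66.9 CPM in TUBO, against 26.5 and 29.3 CPM in early lesion. Tnfrsf1a had 213 and 211 CPM in TUBO, against 118 and 115 CPM in early lesion (0.86 ± 0.22, adjusted p = 0.0164), a call lost on leaving out any 1 of these 4 libraries (0.0627 to 0.0895). Tnfrsf12a (0.72, adjusted p = 0.00819) lost its call without early lesion replicate 1 (0.0762) or TUBO replicate 2 (0.0887), and Tnfrsf19 (0.98, adjusted p = 0.00819) without early lesion replicate 2 (0.0895) or TUBO replicate 2 (0.0709).

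Among ligands, CD30L was higher and TRAIL and TWEAK lower in TUBO. Tnfsf8 had 3.48 and 1.335 CPM in TUBO, against 0.0636 and 0.0892 CPM in early lesion (4.91 ± 1.14, adjusted p = 0.0104), and without TUBO replicate 1 the change was 3.96 and the call lost (0.0576). Tnfsf10 had 2.17 and 1.60 CPM in TUBO, against 9.12 and 12.1 CPM in early lesion (-2.49 ± 0.67, adjusted p = 0.0221), a call lost on leaving out early lesion replicate 2 (0.0875), TUBO replicate 1 (0.0694) or TUBO replicate 2 (0.151). Tnfsf12, with no count in TUBO and 7 counts over both early lesion libraries, was at least 1.2-fold lower (adjusted p = 0.0158), and its call was lost on leaving out any 1 of the 4 libraries (0.057 to 0.0848). The receptors Tnfrsf21, Tnfrsf10b and Tnfrsf11a were not called (adjusted p = 0.698, 0.738 and 0.365). Tnfrsf11a (-0.69 ± 0.53) was called on leaving out DCC control replicate 1 (0.0375) or 2 (0.0343), in a fit of these groups only (0.00176) and with no filter on low counts (0.0397).

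**Figure D5:**
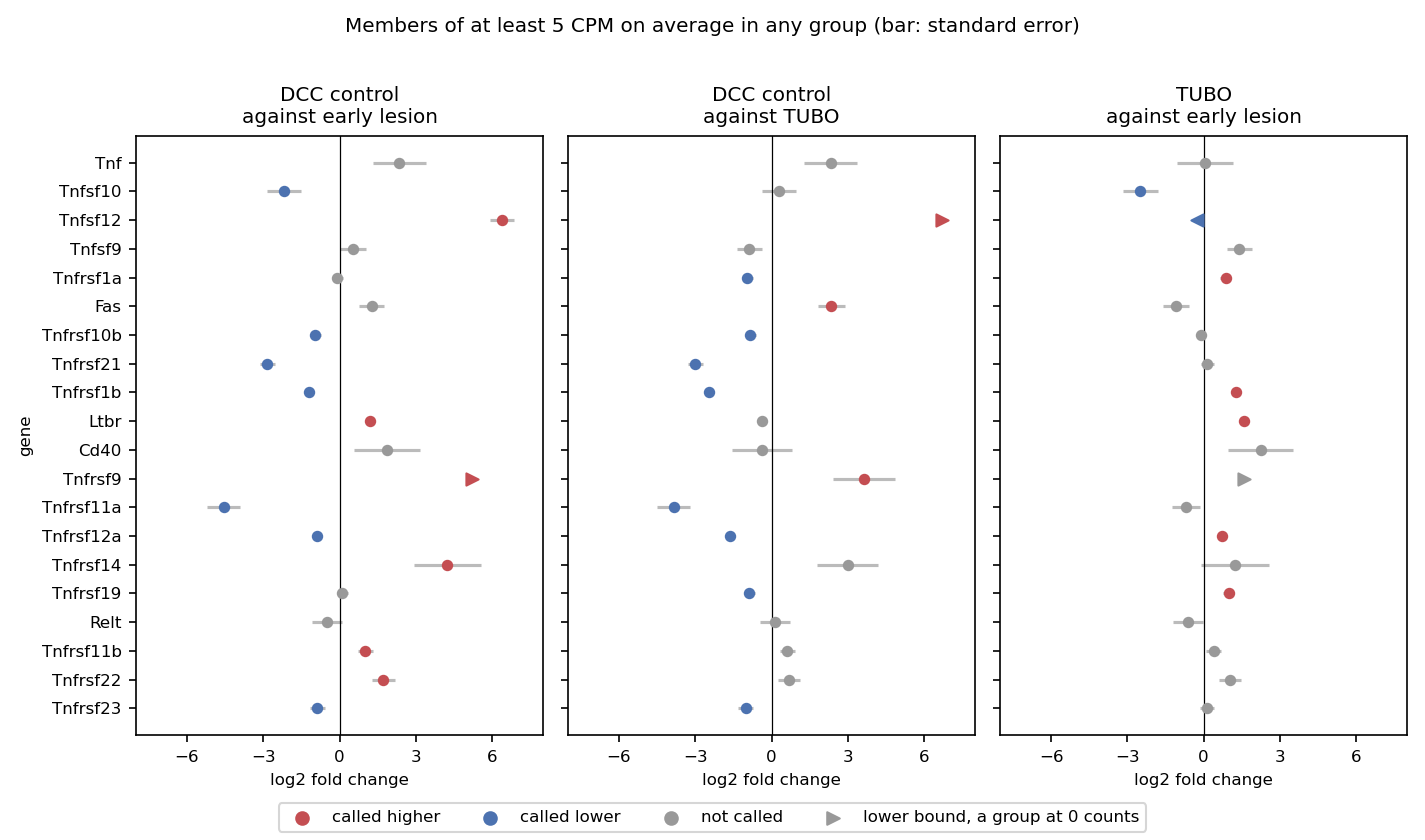
Log2 fold change (points) and standard error (bars) of the 20 members that averaged at least 5 CPM in any group, in the 3 comparisons between untreated groups. Triangles are lower bounds where a group had 0 counts; Tnfsf12 lies far to the right in both DCC control panels, Tnfrsf11a and Tnfrsf21 to the left, and the TUBO panel is the narrowest.

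Ligand and receptor RNA met in few axes within a group. A ligand and at least 1 of its receptors both reached 1 CPM in both libraries for 4 of 18 ligands in DCC IFN-gamma (Tnf, Tnfsf10, Tnfsf12 and Tnfsf9), 5 in DCC control (Tnf, Tnfsf12, Tnfsf15, Tnfsf9 and Eda), and 1 each in TUBO and early lesion (Tnfsf10). In DCC control Tnf passed this level narrowly, with 1.10 CPM in replicate 1. In that library 95% of the sensory receptor genes lay at or under 0.913 CPM. In TUBO and early lesion the receptors Tnfrsf1a, Tnfrsf1b and Tnfrsf12a each had at least 26.5 CPM, and the RNA of their ligands Tnf and Tnfsf12 stayed at or under 0.586 CPM. RNA levels do not show protein, and ligands can come from cells not present in these libraries.

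Signalling genes were also compared between the untreated groups. Against early lesion, 3 of 18 adaptors and regulators were higher and 6 lower in DCC control, and 2 of 10 death complex genes higher and 6 lower. Of 16 kinases and NF-kB genes 5 were higher and 3 lower, and of 5 shedding genes 4 were lower, beside 19.1% higher and 18.7% lower among all genes tested. Mlkl changed by -5.57 ± 0.29, and the largest upward changes among called genes were those of Traf5 (2.75 ± 0.50), Birc3 (2.37 ± 0.48) and Relb (1.34 ± 0.28). Against TUBO the same 4 lists gave 3 higher and 6 lower, 1 and 6, 2 and 4, and 0 and 2, beside 22.1% and 19.9% of all genes tested. Mlkl (-4.59 ± 0.28) and Rhbdf2, a partner of the TNF sheddase Adam17 (-3.28 ± 0.23), were lower there. Birc3, a ubiquitin ligase that guards against cell death, had 7.97 and 12.4 CPM in DCC control, against 0.172 and 0 CPM in TUBO. Its change was 6.75 ± 0.68, or 5.84 without TUBO replicate 2, and without TUBO replicate 1 the group was left at 0. Traf5 changed by 3.77 ± 0.52, or 4.98 and 3.15 without TUBO replicates 1 and 2, and Traf1 had 1.58 and 1.15 CPM against no count in TUBO.

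Between TUBO and early lesion these lists gave 3 higher and 3 lower, 1 and 3, 3 and 0, and 2 and 0 in TUBO, beside 11.4% and 12.7% of all genes tested. Bid, which links death receptors to mitochondria, was higher (2.15 ± 0.24), with 43.5 and 50.2 CPM in TUBO, against 10.5 CPM in both early lesion libraries. Nfkb2 (1.16 ± 0.16) and Relb (1.36 ± 0.28), the pair of the noncanonical NF-kB pathway downstream of Ltbr, were also higher. The Relb call was lost on leaving out early lesion replicate 1 (adjusted p = 0.059). Birc3 (-4.38 ± 0.71, or -3.47 without TUBO replicate 2), Mlkl (-0.99 ± 0.22) and Cyld (-0.71 ± 0.16) were lower. Birc3 was not called in a fit of the 2 groups alone (adjusted p = 0.0603). Mlkl lost its call without early lesion replicate 1 (0.0518) or TUBO replicate 2 (0.0632), and Cyld without early lesion replicate 1 (0.0602) or 2 (0.0665) or TUBO replicate 2 (0.0866).

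The remaining members had low counts. The 6 members not tested were Cd40lg, Cd70, Fasl, Tnfrsf17, Tnfrsf8 and Tnfsf4, none above 0.487 CPM. Among the tested ones, Cd27, Tnfrsf13b, Tnfrsf13c and Tnfsf14 stayed at or under 1.03 CPM in every library, and none was called. Tnfrsf18 (GITR), a receptor of regulatory T cells, had 0.426 and 0 CPM in DCC control, against 2.03 and 2.37 CPM in TUBO and 3.27 and 3.17 CPM in early lesion. It was not called in either comparison (adjusted p = 0.13 and 0.101), but was in both without DCC control replicate 1 (0.0357 and 0.0303), and without DCC IFN-gamma replicate 2 against early lesion (0.0469), where it was also called with DESeq2 (0.047) and with no filter on low counts (0.0243). T and NK cell markers summed to at most 2.86 CPM and B cell markers to at most 2.37 CPM in any library.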

How the data were processed

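RNA from 8 mouse samples was sequenced after extraction with the RNeasy Mini kit and library preparation with a Nugen Ovation kit, per the labels' protocols. The deposited values are whole-number read counts per gene, made by the authors with TopHat on mm10 and HTSeq 0.6.1, per the submitters' processing notes; whether counting used strand is not given in the sources used here. In all the table has 23483 lines; the 5 closing lines, which name no gene, held 35.2% to 63.7% of the reads of a library and were left out. Library totals over genes were 15432210 to 30168475. All 4 groups were fitted in 1 edgeR 4.0.16 quasi-likelihood model (TMM factors, filterByExpr with a minimum count of 10, robust), with 4 residual degrees of freedom, and p-values were adjusted by Benjamini-Hochberg over 17069 genes; calls are at an adjusted p under 0.05. The design was taken without a replicate block. CPM use TMM-scaled library sizes, and a standard error is the log2 fold change divided by the root of F. Fold changes against a group at 0 counts were bounded with a floor of 3 counts per library. Coordinates and exon lengths are from GENCODE M21 (GRCm38), and promoters from RefSeq. Alternatives were other scaling factors, other filters, DESeq2 1.42.0, a replicate block, fits of 2 groups and fits without each library. A few more, named as such below, were chosen after seeing the data. The fit was tested on simulated counts. The members, the signalling and marker lists and the roles were chosen with earlier results of these data known. Values in every library were given for a panel of members and for members called in a comparison whose higher group averaged at least 5 CPM; of the signalling lists, up to 3 called genes with the largest change in each direction were named per comparison, except for some that are not reported here.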

Additional observations from a re-analysis of the deposited data

How the results depend on the processing

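Of the 48 calls of members in the 4 comparisons, RLE factors and DESeq2 kept all 48, upper quartile factors 44, and leaving out 1 library 32 to 41. Deviations of replicates with the same number correlated at 0.091, -0.432, -0.049 and 0.096 in the 4 comparisons. The value of -0.432 was between DCC control and early lesion, each with a library that had more reads outside annotated genes. The correlations therefore do not settle whether the numbers pair the samples. A replicate block gave 7 higher and 1 lower for DCC IFN-gamma against DCC control, and 6 and 8 for DCC control against early lesion. It gave 6 and 9 for DCC control against TUBO, and 6 and 2 for TUBO against early lesion. A crossed block with early lesion numbers exchanged, chosen after seeing the data, gave 7 and 1, 5 and 8, 7 and 9, and 6 and 2. With 1 library left out, the higher counts ran from 5 to 9, 3 to 8, 3 to 9 and 3 to 6 in these comparisons, and the lower counts from 5 to 10 for DCC control against TUBO and from 0 to 4 for TUBO against early lesion. The 2 DCC groups alone gave 2 lower. With early lesion replicate 2 and DCC control replicate 1 both left out, chosen after seeing the data, 4 were higher in DCC control than in early lesion, and 3 were higher and 1 lower in TUBO. For DCC control against TUBO the higher count of 7 became 12 with no filter, 11 with DESeq2, 4 with at least 50 counts in 2 libraries, and 3 with at least 5 CPM in both libraries of a group, chosen after seeing the data. For TUBO against early lesion the lower count of 2 became 6 with no filter and 7 with DESeq2. The cause was not tested. Of values not called with all 8 libraries, Tnf in TUBO against early lesion (0.04) turned to -0.013 with upper quartile factors, -0.044 with DESeq2 and with the 2 groups alone, -0.088 with the crossed block, and ran from -5.90 to 1.003 with 1 library left out. The lowest is a fitted value against 0 counts, since TUBO without replicate 1 had none, and not a size of change; it was called in that fit (adjusted p = 0.0369). Tnfrsf21 after interferon-gamma (0.52) ran from -0.027 to 0.957, the lowest without DCC IFN-gamma replicate 1. Upper quartile factors moved the median of all genes by -0.196 for DCC IFN-gamma against DCC control and 0.108 for DCC control against TUBO. With 2 libraries a group, members under about 1 CPM were little resolved.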
